A study of Mus musculus with 6 samples.

Results

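The 36 genes described here encode the machinery of G2 and mitosis, and they were chosen by name, as the rows of the count table whose Ensembl identifier carries their symbol in GENCODE M21. All 36 were found among the 54838 identifiers of the table. They were compared between splenic B cells of mouse given Cpd10, an inhibitor of FOXO1 per the labels, and cells given DMSO, its control, with 3 libraries in each group. The source was 10 male mice, aged 3 months and taken 9 days after immunisation with sheep red blood cells (SRBC), in 2 independent experiments, and their sorted naive B cells were pooled. All cultures received interleukin 4 (mIL4, 80 ng/ml) and anti-CD40 (5 μg/ml) for 5 days, and 1 μM Cpd10 or DMSO was present for 48 hours from day 3. Genotype and strain were not given in the sources used here. Because cells were pooled before culture, the libraries do not measure the spread between single mice. Which libraries came from which of the 2 experiments was not given either. The labels do not say which cultures the replicate letters A, B and C stand for, and every p-value below reflects the spread among these 6 libraries alone, part or all of which may be technical.

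Transcripts of G2 and M genes build up late in the cell cycle and fall after division. CDK1 bound to cyclin A or cyclin B drives entry into mitosis, polo-like and Aurora kinases build the spindle, kinetochores attach chromosomes to it, the spindle checkpoint holds back the anaphase-promoting complex, and cytokinesis then separates the daughters. Many of these genes are held silent in resting cells by the DREAM complex and switched on by the MuvB proteins with B-MYB and FOXM1, which act on a short promoter element called CHR, together with NF-Y bound at CCAAT boxes. Interleukin 4 and CD40 ligation make naive B cells divide, and FOXO1 is known in lymphocytes as a factor of quiescence and, in germinal centres, of the dark zone where B cells proliferate. In bulk RNA, a larger share of cells in G2 and M and more of these transcripts per cell cannot be told apart.

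Promoter stretches are printed for 7 of the mitotic genes: the 5 genes with a RefSeq promoter window among the 6 whose Cpd10 libraries all lay above the DMSO libraries, and the cyclin B genes that partner Cdk1. Each line gives 100 bases before to 30 bases after the RefSeq start (GRCm38.p6), 5′ to 3′ on the strand of the gene, and capitals mark a CHR word (TTTGAA or TTCGAA) or a CCAAT box on either strand (read as TTCAAA or ATTGG on the opposite strand).
Ccnb1: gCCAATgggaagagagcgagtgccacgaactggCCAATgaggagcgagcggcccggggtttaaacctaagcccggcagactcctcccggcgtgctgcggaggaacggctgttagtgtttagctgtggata
Ccnb2: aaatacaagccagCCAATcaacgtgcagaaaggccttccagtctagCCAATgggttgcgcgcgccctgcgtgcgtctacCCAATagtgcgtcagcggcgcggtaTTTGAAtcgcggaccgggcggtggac
Cdk1: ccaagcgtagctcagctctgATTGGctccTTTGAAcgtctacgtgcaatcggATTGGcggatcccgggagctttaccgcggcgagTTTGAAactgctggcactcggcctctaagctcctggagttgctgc
Aurka: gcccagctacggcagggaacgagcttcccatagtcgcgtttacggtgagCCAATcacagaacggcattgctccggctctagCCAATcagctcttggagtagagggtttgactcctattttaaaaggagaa
Cdca8: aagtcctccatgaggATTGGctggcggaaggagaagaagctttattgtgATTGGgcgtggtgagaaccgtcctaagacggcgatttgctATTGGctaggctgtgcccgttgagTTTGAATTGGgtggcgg
Bub1: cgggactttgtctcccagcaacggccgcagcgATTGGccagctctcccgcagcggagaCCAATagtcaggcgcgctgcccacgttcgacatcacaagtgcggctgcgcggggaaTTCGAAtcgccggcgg
Cenpa: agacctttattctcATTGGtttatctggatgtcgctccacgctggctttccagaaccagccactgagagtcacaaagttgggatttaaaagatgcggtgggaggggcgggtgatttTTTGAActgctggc
These stretches lie at chr13:100786457-100786586 (- strand), chr9:70421525-70421654 (- strand), chr10:69352883-69353012 (- strand), chr2:172370541-172370670 (- strand), chr4:124936888-124937017 (- strand), chr2:127831830-127831959 (- strand) and chr5:30666786-30666915 (+ strand), in the same order. In Ccnb2, 3 CCAAT boxes at -87, -54 and -21 (negative positions lie before the start) precede a CHR word at 5. Cdk1 holds CHR words at -71 and -15, and Bub1 has its CHR word, the variant TTCGAA, at 15. In Cdca8 the CHR word at 14 and a CCAAT box at 19 overlap. The stretches of Ccnb1 and Aurka hold CCAAT boxes and no CHR word. Aurka has one further on, at 33, and Ccnb1 has none from 250 bases before to 50 after the start.

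Of the 36 genes, 31 had a window of 250 bases before to 50 after a start in the RefSeq table, and Ccna2, Tpx2, Aurkb, Dlgap5 and Kif20a had none there. A CHR word on either strand stood in the windows of 25 of the 31 genes (80.6%), against 21.7% of all 27025 genes with such windows. Between 30 bases before and 50 after the start it stood in 22 of 31 (71.0%), against 4.79% of all genes. CCAAT was found in 25 of 31 (80.6%; 41.1% of all genes), and within 100 bases before the start in 22 of 31 (71.0%; 21.6%). The forkhead core TGTTTAC, a word that FOXO and FOXM1 proteins can bind, was found in 2 of 31 (Nuf2 and Ect2; 6.45%, against 4.05% of all genes). CHR and CCAAT words were thus common in these windows, and the forkhead word was rare in them, as it was among all genes. A match is a description of letters and not of binding, and nothing in these data measured binding.

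**Figure D1:**
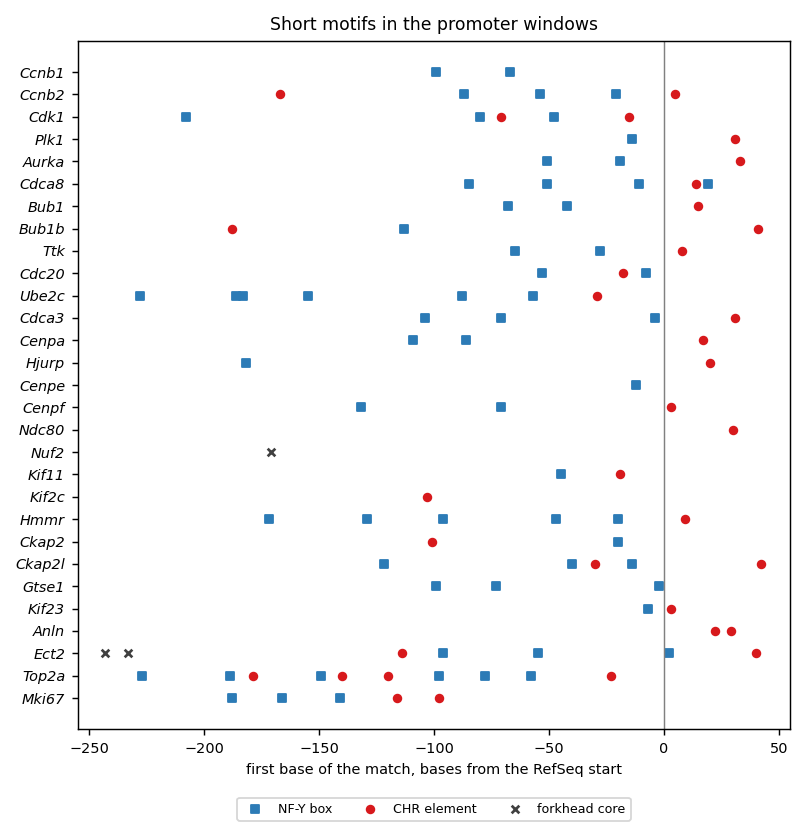
Position of CHR elements (red circles), NF-Y boxes, which are CCAAT words (blue squares), and forkhead core words (crosses) in the first promoter window of each mitotic gene that holds any of them, in bases from the RefSeq start on the x axis. Most red circles sit close to the start, and CHR words stood from 30 bases before to 50 after it in 22 of 31 genes.

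All 36 genes were well measured, with 866 to 49718 counts per library, and all passed the filter on low counts. Library totals ran from 36873204 to 44859930 counts. B cell transcripts were abundant in every library (Cd79a, a subunit of the B cell receptor, at 598 to 829 CPM, counts scaled by normalised library size). The 7 B cell markers summed to 4953, 4836 and 5149 CPM in DMSO A, B and C and 4144, 5319 and 5076 CPM in Cpd10 A, B and C. In the edgeR fit of treatment alone, 3 of these markers had a positive and 4 a negative log2 fold change (Cpd10 minus DMSO). The Foxo1 transcript, whose protein Cpd10 targets, gave 138 ± 16.5 CPM with DMSO against 118 ± 10.0 CPM with Cpd10 (mean ± SD, 3 libraries a group, edgeR adjusted p = 0.711). The leading principal component (46.3% of the variance) parted DMSO A and C with Cpd10 A from DMSO B with Cpd10 B and C, called library sets 1 and 2 below. The sets are not in the labels and cross the treatment. Ribosomal protein genes took 6.08% to 6.52% of counts in set 1 and 9.83% to 11.0% in set 2. Set 1 holds 1 Cpd10 library and set 2 holds 1 DMSO library, so any comparison within sets leans on Cpd10 A and on DMSO B.

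Per kilobase of exon, Top2a, the topoisomerase that untangles sister chromatids, and Mki67, the coat protein of mitotic chromosomes known as Ki-67, stood highest among the 36 in DMSO, at 78.6 ± 15.7 and 70.5 ± 17.1 CPM per kilobase. Next came Cdc20, the activator of the anaphase-promoting complex (56.1 ± 7.81), and Ccnb2, a cyclin B (44.3 ± 7.10). Neither Top2a and Mki67 nor Cdc20 and Ccnb2 differed by more than the sum of their SDs. Anln, the actin-binding scaffold of the cleavage furrow, was lowest (2.84 ± 0.0823), below Ttk, the checkpoint kinase MPS1 (5.06 ± 0.662). The order was nearly the same in Cpd10, where the same 4 genes led and no gene moved by more than 5 places.

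Across libraries the 36 genes moved largely together, in an order of libraries that crossed the treatment. Their summed level was 4648, 3450 and 4567 CPM in DMSO A, B and C and 5975, 3831 and 3880 CPM in Cpd10 A, B and C. The highest sum was that of a Cpd10 library and the lowest that of a DMSO library, but 2 of the Cpd10 libraries lay below 2 of the DMSO libraries. Cpd10 A had the highest value for 33 of the 36 genes, and DMSO B the lowest for 24. Relative to its mean over the 6 libraries, the median gene stood at 0.42 in Cpd10 A, 0.061 in DMSO A, 0.0055 in DMSO C, -0.092 in Cpd10 B, -0.098 in Cpd10 C and -0.32 in DMSO B on the log2 scale. The plot of the mitotic genes by library shows this order gene by gene.

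**Figure D2:**
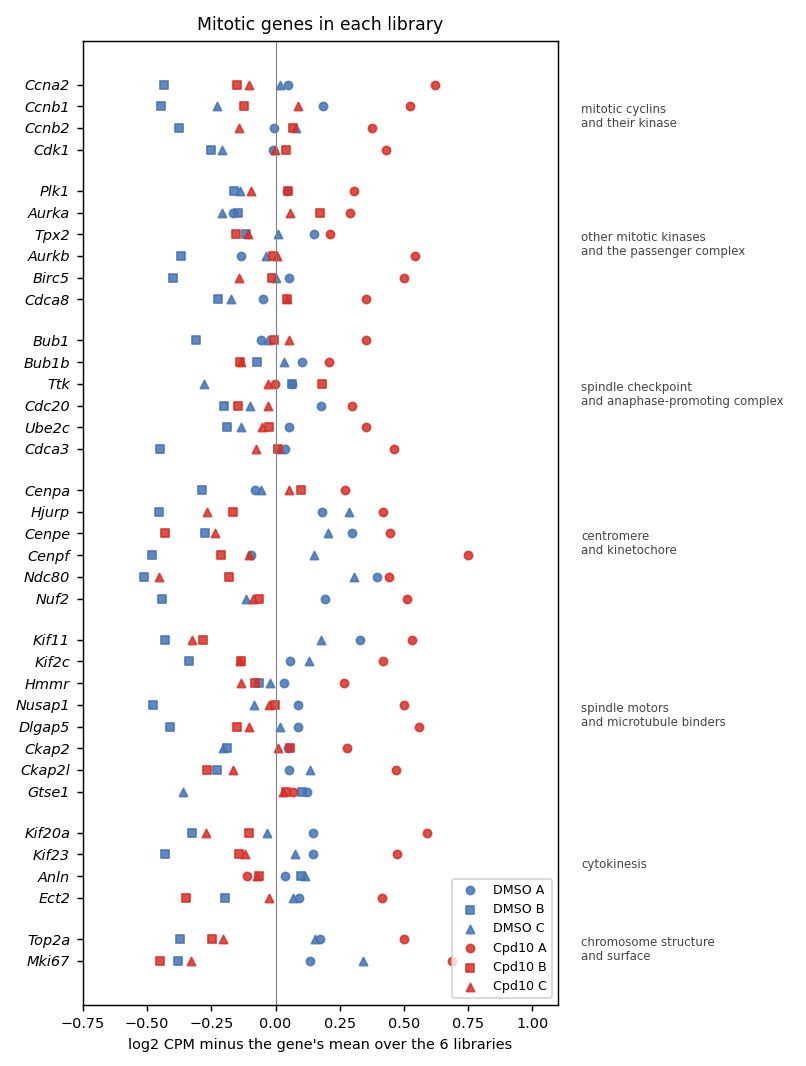
Level of each mitotic gene in each library as log2 CPM minus the gene's mean over the 6 libraries (x axis), with genes in rows grouped by role, DMSO in blue and Cpd10 in red, and the marker shape giving the replicate. Cpd10 A lies farthest to the right for 33 of 36 genes, and DMSO B farthest to the left for 24.

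Without regard to the sets, edgeR's quasi-likelihood test called 0 of the 36 genes higher and 0 lower at an adjusted p under 0.05. In that fit, 0.317% of the 15136 tested genes were called higher and 0.0529% lower. Also 0 of the 36 were called by DESeq2 (1.15% of genes higher, 0.849% lower), limma-voom (0.264% and 0.0396%) and edgeR with the replicate letter as a block (0.264% and 0.0595%). An unadjusted p under 0.05 was found for 3 genes, all with a positive log2 fold change (Aurka, Cdca8 and Cenpa, chosen by that value), against 3.86% of all tested genes in that direction; 0 had a negative one, against 4.53%. Fitted log2 fold changes, Cpd10 minus DMSO, ran from -0.17 (Anln) to 0.38 (Aurkb), with 29 positive and 7 negative and a median of 0.18; over all tested genes the median was -0.0012. All 3 Cpd10 libraries lay above all 3 DMSO libraries for 6 genes (Cdk1, Aurka, Aurkb, Cdca8, Bub1 and Cenpa), 16.7% of the 36 against 7.31% of all tested genes. They lay below for 1 (Anln), against 7.32% of all tested genes.

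Within each library set most of the genes stood higher in Cpd10. In set 1, Cpd10 A was above the mean of DMSO A and C for 35 of the 36 genes (median difference 0.36 in log2 CPM), and in set 2 the mean of Cpd10 B and C was above DMSO B for 29 (median 0.21). Both differences were positive for 29 genes (80.6%) and both negative for 1, where 29.5% of all tested genes were positive and 32.3% negative in both sets. With treatment and set both in the model, edgeR called 15 of the 36 higher (41.7%) and 0 lower, where 2.32% of all tested genes were called higher and 1.64% lower. Their rises were small, from 1.26-fold to 1.44-fold. Over all 36 genes the median log2 fold change of that fit was 0.28, with 35 positive and 1 negative. The sets were found in these same counts, so the calls with the set term are exploratory, and since the genes move together, the 36 are not independent observations.

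**Figure D3:**
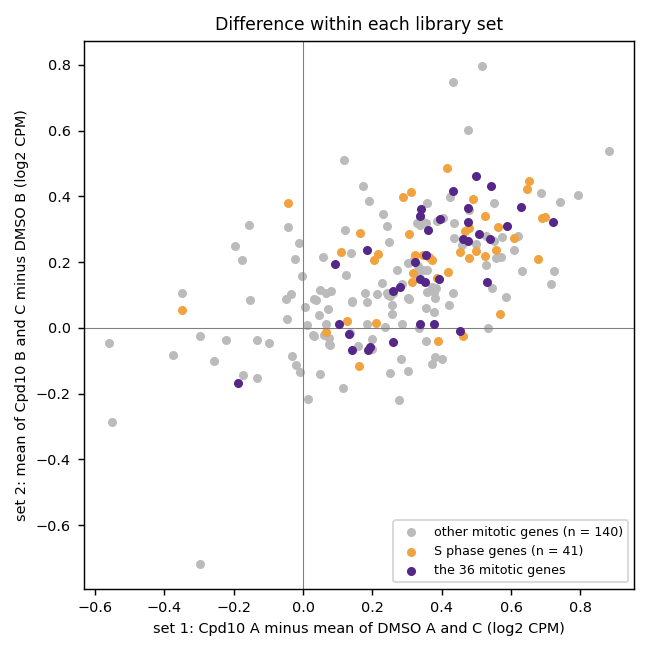
Difference between Cpd10 and DMSO in log2 CPM within library set 1 (x axis, Cpd10 A minus the mean of DMSO A and C) and within set 2 (y axis, the mean of Cpd10 B and C minus DMSO B), with a point for each of the 36 mitotic genes (purple), 41 S phase genes (orange) and 140 other mitotic genes (grey). Of the 36, 29 lie in the upper right part and 1, Anln, in the lower left.

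Those calls rested on few libraries. With the set term, edgeR called 15 of the 36 genes higher without DMSO A (2.96% of all genes), 13 without DMSO C (2.36%) and 0 without Cpd10 A (0.602%). It called 4 without DMSO B (Aurkb, Ccna2, Cenpf and Dlgap5, against 1.45%), 4 without Cpd10 B (Aurkb, Ccna2, Cenpf and Nusap1, against 1.33%) and 2 without Cpd10 C (Aurkb and Nusap1, against 0.956%). Halved counts gave the same 15 (2.69% of all genes). The genes called in each of these fits were among the 15. Aurkb was called in 5 of the 6 fits, Ccna2, Cenpf and Nusap1 in 4, and Dlgap5 in 3. Aurka and Kif23 were called in 1 of the 6, and the rest of the 15 in 2. Without Cpd10 A, set 1 holds DMSO libraries alone, so the fit with the set term compares Cpd10 B and C with DMSO B, the lowest library for 24 of the 36 genes, and repeats the difference within set 2 (median 0.23, 30 genes positive). Without DMSO B it likewise compares Cpd10 A with DMSO A and C and repeats the difference within set 1. Neither is a separate check. Without Cpd10 A and without the set term the median was -0.020, with 17 positive and 19 negative. With the group alone, 0 of the 36 were called in either direction whichever library was left out. The shares of all genes called higher in those fits were 0.0318%, 0.398% and 0.00635% without DMSO A, B and C and 0.418%, 0.00633% and 0% without Cpd10 A, B and C, and those called lower were 0.234% without DMSO B, 0.0697% without Cpd10 A and 0% in the other 4.

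**Figure D4:**
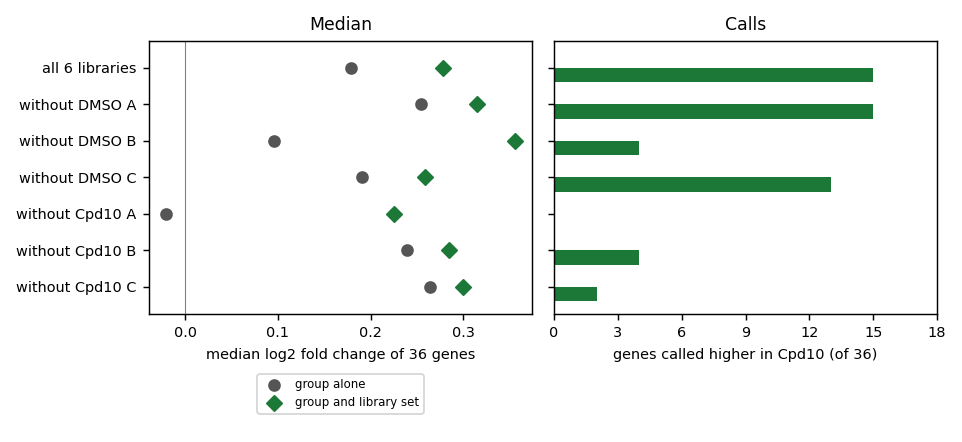
Left, median log2 fold change (Cpd10 minus DMSO) of the 36 mitotic genes with all libraries and with each left out, for edgeR with the group alone (grey circles) and with the library set as a term (green diamonds); right, the number of the 36 called higher in each fit, which was 0 for every fit with the group alone. The grey median falls to -0.020 without Cpd10 A, and the lowest and highest green medians, 0.23 without Cpd10 A and 0.36 without DMSO B, each rest on the comparison within 1 set, against a single library.

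Among the mitotic cyclins and their kinase, 3 of 4 were called higher with the set term. Cdk1 (chromosome 10, 69335146 to 69352938, ENSMUSG00000019942), the kinase that starts mitosis, was at 86.7, 73.2 and 75.5 CPM in DMSO A, B and C and at 118, 89.6 and 87.0 CPM in Cpd10 A, B and C. The groups did not overlap, although Cpd10 C and DMSO A were nearly level. Its log2 fold change was 0.32 (SE 0.14, edgeR adjusted p = 0.603) with the group alone and 0.40 (SE 0.093, adjusted p = 0.0289) with the set term. Ccnb1, the main cyclin B (chromosome 13, 100778650 to 100786570, ENSMUSG00000041431), was at 107, 69.2 and 80.6 CPM in DMSO and 136, 86.8 and 100.3 CPM in Cpd10. The groups overlapped, since DMSO A lay above Cpd10 B and C. Its log2 fold change was 0.33 (edgeR adjusted p = 0.777), or 0.48 with the set term (adjusted p = 0.0393). Ccna2, the cyclin A of S phase and early mitosis, was at 142, 102 and 139 CPM in DMSO and 212, 124 and 128 CPM in Cpd10, where only Cpd10 A stood above the DMSO libraries. With the set term its log2 fold change was 0.45 (SE 0.085, edgeR adjusted p = 0.0100), and with the group alone 0.28 (adjusted p = 0.850). Exons of Exosc9, on the opposite strand, overlap 12.5% of the exon length of Ccna2, and the sources used here do not give the strand setting of the counting. Ccnb2 reached 0.34 (log2) with the set term and did not pass (edgeR adjusted p = 0.0581).

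The group of the Aurora kinases, Plk1, Tpx2 and the chromosomal passenger complex held 4 genes of 6 called with the set term. That complex corrects faulty attachments of chromosomes and guides cytokinesis. Aurkb, the kinase of that complex (chromosome 11, 69045647 to 69051664, ENSMUSG00000020897), was at 91.1, 77.4 and 97.4 CPM in DMSO and 146, 99.2 and 100.4 CPM in Cpd10. The groups did not overlap, but Cpd10 B and C exceeded DMSO C only slightly. Its log2 fold change was 0.38 (SE 0.17, edgeR adjusted p = 0.628), the largest fitted value of the 36, and 0.50 with the set term (SE 0.087, adjusted p = 0.00581). Aurka, the kinase of centrosomes and spindle poles (chromosome 2, 172356190 to 172370535, ENSMUSG00000027496), was at 46.9, 47.5 and 45.5 CPM in DMSO and 64.3, 59.3 and 54.7 CPM in Cpd10. Its DMSO libraries differed little, the groups were well apart, and the sets differed by only 0.068 (log2, set 1 minus set 2). Its log2 fold change was 0.35 (SE 0.10, edgeR adjusted p = 0.325, unadjusted p = 0.00901), or 0.37 with the set term (adjusted p = 0.0433), so its size hardly depended on that term. With the set term, Aurka was called in only 1 of the 6 fits that left a library out. Cdca8, the passenger subunit borealin, was at 93.2, 82.5 and 85.5 CPM in DMSO and 123, 99.4 and 99.4 CPM in Cpd10, also without overlap. Its log2 fold change was 0.30 (edgeR adjusted p = 0.529), or 0.37 with the set term (adjusted p = 0.0295). Birc5, the subunit survivin, was called with the set term as well (0.40, edgeR adjusted p = 0.0215), though 2 of its Cpd10 libraries (69.7 and 63.9 CPM) lay below 2 of the DMSO libraries (73.0 and 70.5 CPM). Plk1, the polo-like kinase (0.25 with the set term, edgeR adjusted p = 0.208), and Tpx2, the activator of Aurora A on the spindle (0.057, adjusted p = 0.814), were not called. Tpx2 was at 149 to 179 CPM in DMSO and 145 to 187 CPM in Cpd10, with overlapping groups.

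Of 6 genes of the spindle checkpoint and the anaphase-promoting complex, which starts the separation of sister chromatids, 2 were called with the set term. Bub1, a checkpoint kinase at kinetochores (chromosome 2, 127801122 to 127831865, ENSMUSG00000027379), was at 68.5, 57.6 and 69.8 CPM in DMSO and 91.0, 70.9 and 74.0 CPM in Cpd10. Those groups did not overlap, and the log2 fold change was 0.27 (edgeR adjusted p = 0.677), or 0.36 with the set term (adjusted p = 0.0273). Bub1b, which encodes the checkpoint protein BUBR1, was at 138, 122 and 131 CPM in DMSO and 148, 116 and 117 CPM in Cpd10. Here 2 Cpd10 libraries were the lowest of the 6, and the log2 fold change was -0.035 with the group alone and 0.038 with the set term (SE 0.082, edgeR adjusted p = 0.885). Cdca3, a substrate adaptor that promotes mitotic entry, was called with the set term (0.42, edgeR adjusted p = 0.0107). Ube2c, the ubiquitin-conjugating enzyme of the anaphase-promoting complex, and Cdc20 were not (0.27 and 0.18, edgeR adjusted p = 0.134 and 0.377), and Ttk had 0.055 (SE 0.13). Ttk was at 21.1 to 26.8 CPM in DMSO and 25.1 to 29.0 CPM in Cpd10.

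At centromeres and kinetochores, 3 of 6 genes were called with the set term. Cenpa, the histone variant that marks centromeres (chromosome 5, 30666777 to 30674830, ENSMUSG00000029177), was at 97.2, 84.3 and 98.9 CPM in DMSO and 124, 110.0 and 107 CPM in Cpd10. The groups did not overlap, and the differences within set 1 and within set 2 were nearly equal (0.34 and 0.36 in log2 CPM). Its log2 fold change was 0.28 (SE 0.11, edgeR adjusted p = 0.529) with the group alone and 0.35 (SE 0.078, adjusted p = 0.0254) with the set term. Hjurp, the chaperone that places CENP-A, was at 199.6, 129 and 215 CPM in DMSO and 235, 157 and 146 CPM in Cpd10, with overlapping groups and a log2 fold change of -0.012 (0.21 with the set term, edgeR adjusted p = 0.202). Cenpf, a large kinetochore protein of G2 and M, was at 82.3, 63.0 and 97.5 CPM in DMSO and 148, 75.8 and 81.9 CPM in Cpd10. Cpd10 A alone was above the DMSO libraries, and Cenpf had the largest log2 fold change of the 36 with the set term, 0.52 (SE 0.11, edgeR adjusted p = 0.0157). Nuf2 was called (0.42, edgeR adjusted p = 0.0341), while Ndc80, the partner it binds in the kinetochore complex that grips microtubules, was not (0.15, adjusted p = 0.574). The difference between these genes was not tested. Cenpe, the kinetochore motor, was at 75.3 to 112 CPM in DMSO and 67.6 to 124 CPM in Cpd10 (0.071, edgeR adjusted p = 0.792).

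Among 8 spindle motors and microtubule binders, Nusap1 and Dlgap5 were called with the set term. Nusap1, which bundles spindle microtubules, was at 137, 92.7 and 122 CPM in DMSO and 182, 129 and 127 CPM in Cpd10. DMSO A lay above Cpd10 B and C, yet within each set Cpd10 was higher by a similar amount (0.50 and 0.46 in log2 CPM). Its log2 fold change was 0.32 (edgeR adjusted p = 0.753), or 0.48 with the set term (SE 0.082, adjusted p = 0.00526), the smallest adjusted p of the 36. Exons of Oip5 on the opposite strand overlap 4.24% of its exon length. Dlgap5, a spindle assembly factor, had 0.40 with the set term (edgeR adjusted p = 0.0239). Kif11, the motor that pushes spindle poles apart, was at 218, 129 and 196 CPM in DMSO and 252, 143 and 139 CPM in Cpd10. Its values followed the library sets far more than the treatment, and its log2 fold change was -0.028, or 0.20 with the set term (edgeR adjusted p = 0.238). Kif2c, Hmmr, Ckap2, Ckap2l and Gtse1 ran from 0.050 to 0.29 with the set term and were not called. For Gtse1, which restrains p53 in G2, DMSO C was the outlying library, at 60.9 CPM against 79.8 to 85.2 CPM in the other 5.

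Genes of cytokinesis included the only gene with a negative estimate in both fits. Anln was at 24.9, 26.0 and 26.3 CPM in DMSO and 22.4, 23.2 and 23.0 CPM in Cpd10. All Cpd10 values lay below all DMSO values, with an estimate of -0.17 on the log2 scale (SE 0.11, edgeR adjusted p = 0.770) that did not pass with the set term either (-0.18, adjusted p = 0.504). Kif23, a motor of the central spindle, was called with the set term (0.33, edgeR adjusted p = 0.0380), at 94.1, 63.0 and 89.5 CPM in DMSO and 118, 76.9 and 78.2 CPM in Cpd10. Kif20a, another motor of the central spindle, had 0.34 (SE 0.11, edgeR adjusted p = 0.109), and Ect2, the exchange factor that activates RhoA at the furrow, 0.18 (adjusted p = 0.489). Of the exon length of Kif20a, 29.3% overlaps Cdc23 on the opposite strand, so its value is uncertain.

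The most abundant pair, Top2a and Mki67, showed no call in either fit. Mki67 was at 745, 523 and 860.1 CPM in DMSO and 1095, 498 and 541 CPM in Cpd10. Cpd10 held both its highest and its lowest library, and its means were nearly equal, 709 ± 172 CPM with DMSO and 711 ± 333 CPM with Cpd10 (SD, n = 3). Top2a was at 796, 545 and 785 CPM in DMSO and 999, 595 and 613 CPM in Cpd10. With the set term the log2 fold changes were 0.24 for Top2a (edgeR adjusted p = 0.130) and 0.22 for Mki67 (adjusted p = 0.356). The plot of fitted changes places both below Cdk1, Aurkb and Cenpa in estimate, a difference that was not tested.

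**Figure D5:**
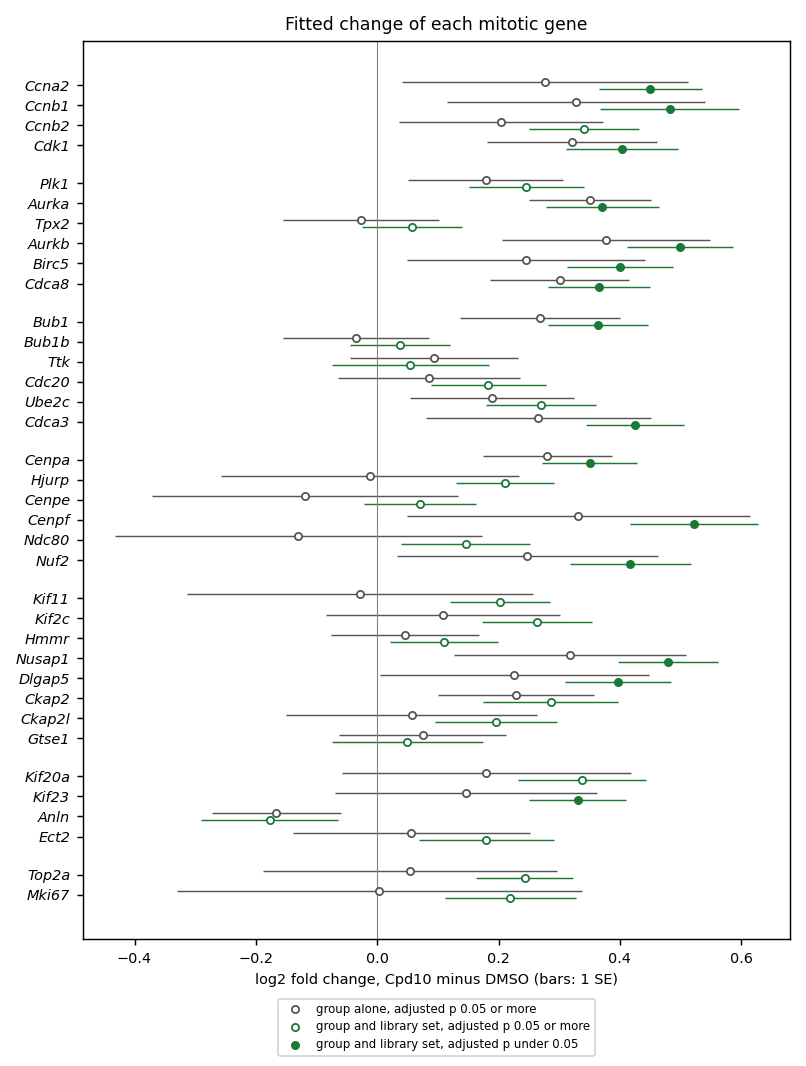
Log2 fold change of each mitotic gene, Cpd10 minus DMSO (x axis, bars of 1 SE), from edgeR with the group alone (grey) and with the library set as a term (green), with filled points for an adjusted p under 0.05. No grey point is filled, 15 green points are, and Anln alone has both points left of 0.

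Between the library sets, the median difference of these genes was larger than between the treatments. Set 1 stood above set 2 for 33 of the 36, in both treatment groups for 32, by a median of 0.46 on the log2 scale, where the median of all tested genes was -0.0040. It ran from -0.12 for Ttk to 0.85 for Mki67. Genes with longer exon models, which merge all annotated exons of a gene, differed more. Across the 36 genes, the set difference had a Spearman correlation of 0.466 with exon length (0.153 across 15132 tested genes). For the fitted change it was -0.366 (-0.091) with the group alone and -0.171 (-0.0010) with the set term. These are descriptions across genes that share 6 libraries. The 18 genes with longer exon models (4.68 to 15.4 kilobases) had a median log2 fold change of 0.055 with the group alone, against 0.22 in the 18 shorter ones, and 7 and 8 of them were called with the set term. The part of transcript length in these results was not tested.

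Other genes of mitosis were read in the same fits. Of 140 further mitotic genes in 7 lists, edgeR with the group alone called 0 in either direction (median log2 fold change 0.073). In that fit 1 was higher and 1 lower at an unadjusted p under 0.05, against 3.86% and 4.53% of all tested genes. DESeq2 and limma-voom also called 0 of the 140. The set term gave 14 higher and 1 lower (median 0.17), where 2.32% of all tested genes were called higher and 1.64% lower. Without Cpd10 A these became 0. By list, with the set term, 3 of 9 condensin genes, which compact mitotic chromosomes, were higher, as were 7 of 37 spindle and cytokinesis genes, 3 of 21 transcriptional regulators and 1 of 33 checkpoint and kinetochore genes. None of 17 genes of the anaphase-promoting complex or of 10 cohesin and separase genes was called. The single lower gene was Cdc25b, a phosphatase that activates CDK1, among 13 genes of the G2 gate. Cdc25b was at 167, 93.3 and 148 CPM in DMSO and 107, 79.2 and 74.0 CPM in Cpd10, with overlap between Cpd10 A and DMSO B. Its log2 fold change was -0.65 (edgeR adjusted p = 0.515), or -0.42 with the set term (adjusted p = 0.0249). With the set term it moved opposite to Cdk1, the kinase it activates.

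The regulators of mitotic transcription did not move as a block. Mybl2, which encodes B-MYB, was at 143, 73.1 and 101 CPM in DMSO and 222, 106 and 106 CPM in Cpd10 (log2 fold change 0.70 with the set term, SE 0.14, edgeR adjusted p = 0.0280, and 0.45 with the group alone, adjusted p = 0.844). Foxm1 was at 96.2, 57.6 and 95.2 CPM in DMSO and 92.7, 57.5 and 59.9 CPM in Cpd10, with estimates of -0.0092 with the set term (SE 0.083, edgeR adjusted p = 0.976) and -0.24 with the group alone. Cpd10 A stood with DMSO A and C, and DMSO B with Cpd10 B and C. The pocket protein genes Rb1, whose product restrains E2F factors, and Rbl1, a subunit of DREAM, were higher with the set term (0.60 and 0.40, edgeR adjusted p = 0.00277 and 0.0333). Wee1, the kinase that holds CDK1 inactive, had 0.0046 (edgeR adjusted p = 0.989).

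Genes of S phase, which copy the DNA before G2, stood highest and lowest in the same libraries as the mitotic genes. Of 41 S phase genes, 0 were called with the group alone and 15 were higher with the set term, against 2.32% of all tested genes (median log2 fold change 0.17 and 0.30). Both within-set differences were positive for 35 (85.4%), against 29.5% of all tested genes. Leaving out a library with the set term kept, 19, 10 and 13 were called higher without DMSO A, B and C (2.96%, 1.45% and 2.36% of all genes). Without Cpd10 A, B and C, 0, 4 and 2 were called higher (0.602%, 1.33% and 0.956%). Here too, the fits without DMSO B and without Cpd10 A only repeat the difference within 1 set. Among the 15 called with all libraries were Rrm2, a subunit of ribonucleotide reductase (0.55, SE 0.082, edgeR adjusted p = 0.00197), and Lig1, the DNA ligase of replication (0.51, adjusted p = 0.00678). The summed level of the S phase genes was 5124, 3879 and 4625 CPM in DMSO A, B and C and 6450, 4530 and 4493 CPM in Cpd10 A, B and C. No test set the mitotic genes against the S phase genes.

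Markers of other cells were low, with a few exceptions, and their part in the values above was not tested. Of 8 T cell markers 2 passed the filter, and their summed level (219 to 427 CPM in DMSO, 173 to 270 CPM in Cpd10) was almost all Thy1, while Cd3d, Cd3e and Cd3g stayed at or below 0.385 CPM. Of 7 monocyte and macrophage markers 2 passed (14.2 to 22.3 and 8.81 to 15.4 CPM, almost all Adgre1), with Lyz2 and Csf1r at or below 0.248 CPM. Of 6 NK cell markers 2 passed (3.69 to 13.3 and 2.08 to 10.2 CPM), and Ncr1 was at 0 in every library. Of 7 stromal and endothelial markers 3 passed (11.9 to 20.7 and 4.93 to 10.1 CPM, mostly Pecam1), with Col3a1 at 0. Of 7 erythroid markers 1 passed (sums of 0.146 to 0.661 and 2.62 to 3.35 CPM), with Hba-a1 at 0, and of 7 neutrophil and mast cell markers none passed (0 to 1.09 and 0 to 0.220 CPM). All 7 plasma cell markers passed, and their sum was 3183 to 5362 CPM in DMSO and 3588 to 3857 CPM in Cpd10, led in DMSO C by Jchain at 2057 CPM. Erythroid sums were higher, and stromal and endothelial sums lower, in every Cpd10 library than in every DMSO library. The sums of the other marker lists overlapped between the groups. Of all tested genes taken singly, 7.31% lay higher and 7.32% lower in every Cpd10 library than in every DMSO library. With the group alone edgeR called none of these markers. DESeq2 called 1 erythroid marker higher and 1 stromal or endothelial marker lower, against 1.15% and 0.849% of all genes. Once the set term was added, edgeR called Hbb-bt (log2 fold change 4.07, adjusted p = 0.00687) and the plasma cell factor Irf4 (0.49, adjusted p = 0.0131) higher. It called Thy1 (-0.46, adjusted p = 0.0167), Adgre1 (-0.80, adjusted p = 0.0252) and Pecam1 (-1.43, adjusted p = 0.0356) lower. Of all tested genes, 2.32% were called higher and 1.64% lower with the set term. Of the 7 plasma cell markers, 3 had a positive and 4 a negative log2 fold change in that fit. Their median was -0.12, and -0.89 with the group alone.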

How the data were processed

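Raw counts (whole numbers for each gene) were deposited by the authors in 1 table of 6 libraries (poly A selected, directional kit, per the labels' protocols). Per the submitters' processing notes, tools were STAR 2.7.10a, featureCounts 2.0.6 and DESeq2, and builds mm10 and GRCm38; the sources used here do not give the strand setting. Symbols, positions and exon lengths came from GENCODE M21 (54809 of 54838 identifiers matched, 29 did not). Among counts of 1 to 20, 77.3% to 79.0% were even in each library, against 51.1% to 52.6% of counts above 1000; whether mates of a pair were counted separately is not given, and halved counts were tried.

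Counts were fitted on the whole table with edgeR 4.0.16 in R 4.3.3 (TMM, filterByExpr, 15136 genes tested, robust quasi-likelihood test, group as the only term). Calls are genes whose p, adjusted by Benjamini-Hochberg, is under 0.05. SE is the fold change over the square root of F; log2 CPM used a prior count of 2. For the library sets, each way of dividing the 6 libraries into equal sets was scored by its number of genes with at most 3 counts throughout one set and at least 50 throughout the other, and the highest-scoring one was taken (9 genes). The fit with the group alone, and not the one with the set term, was tested on simulated data. DESeq2 1.42.0, limma 3.58.1 (voom), other normalisations, no filter, the replicate block and leaving out each library were tried. The genes, lists and tests, and the rule for naming other genes (those called, at most 3 a list by p, plus fixed regulators), were chosen with earlier results of these data known. Replicates differed beyond sampling noise (chi-square per degree of freedom 11.5 to 157).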

Additional observations from a re-analysis of the deposited data

How the results depend on the processing

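For the 36 genes, the count of calls was 0 in both directions with the group alone under every alternative run: DESeq2, limma-voom, RLE or upper quartile normalisation, no filter, halved counts (chosen after seeing the data), the replicate block and each library left out. The median log2 fold change of 0.18 was 0.16 with the replicate block and ranged from -0.020 (without Cpd10 A) to 0.26 as libraries were left out.

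The library set as a term changed the calls: 15 of the 36 higher, 15 of 140 other mitotic genes and 599 of all genes. Halved counts with the set term gave 15, 16 and 631. With the set term and without DMSO A, B or C, edgeR called 15, 4 and 13 of the 36 higher, 22, 8 and 12 other mitotic genes, and 907, 437 and 622 of all genes; without Cpd10 A, B or C it called 0, 4 and 2 of the 36, 0, 3 and 2 other mitotic genes, and 130, 343 and 225 of all genes.

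Over all genes, edgeR with the group alone called 56, and 0 (without Cpd10 C) to 100 (without DMSO B) with a library left out; it called 194 without the filter and 49 with the replicate block, and DESeq2 called 356. The replicate letters share only a letter: deviations from the group means correlated at 0.309, 0.432 and -0.315 for A, B and C, and DMSO C correlated best with Cpd10 A (0.464). The replicate block changed no call among the 36. Each of the 36 genes had at least 866 counts in every library.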
